A study of Mus musculus with 9 samples.

Results

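The genes described here are 38 genes that mark the epithelium of the colon, examined in libraries made from the colonic muscle coat. They were chosen by name for their roles in epithelial cells, with their levels in these same libraries already known, so every value of theirs is given as a description. Of the 38 genes, 37 were in the table of 10011 genes, and Lgals2 was not analysed here. For the description they were set in 4 classes: 20 shared epithelial genes, 8 genes of absorptive colonocytes, 8 genes of goblet cells and the endocrine gene Chga.

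The libraries came from the muscle layers of the colon of untreated C57BL/6 mice, which were 1, 3 or 5 weeks old (PW1, PW3 and PW5), and were read by RNA sequencing. Each age had 3 mice and each mouse gave 1 library, so that 9 libraries were compared and PW1 served as the control. The mucosa had been stripped from the opened colon by sharp dissection, and RNA was taken from proximal and distal muscle preparations. The authors describe the sequenced tissue as the muscle coat of the colon and, in a figure legend, as whole colon. The share of proximal and distal tissue in each library is not given in the sources used here. Values are FPKM, fragments scaled to the length of the transcript and to the mapped fragments of the library, and the depth of the libraries is unknown.

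The colon is lined by a single sheet of epithelial cells that is renewed from stem cells at the base of the crypts. Absorptive colonocytes take up salt and water, goblet cells secrete the mucus that keeps bacteria away from the surface, and endocrine cells release hormones. In rodents this lining matures around weaning, when milk gives way to solid food. None of these cells belongs to the muscle coat, which consists of smooth muscle, interstitial cells, enteric neurons and glia.

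The labelled tissue was checked against 12 genes of smooth muscle, all of which were in the table. Their summed FPKM was 22246, 19528 and 16324 in PW1 replicates 1, 2 and 3, 28501, 26000.4 and 31711 in the PW3 libraries and 27013, 24133 and 24319.8 in the PW5 libraries, and groups of 3 values are given in this order of replicates throughout. They made up 7.79% to 15.8% of all FPKM of a library. The 2 most abundant were the actins Actg2, at 4396 to 9743 FPKM, and Acta2, at 4451 to 7906 FPKM. Muscle transcripts were thus abundant in all 9 libraries, and the libraries' total FPKM lay between 200604 and 223474.

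The summed FPKM of the 37 epithelial genes was 66.2, 116 and 323 at PW1, 51.0, 4301 and 348 at PW3, and 1789, 153 and 1469 at PW5. PW3 replicate 2 stood apart, with 1.92% of its FPKM in these genes against 0.0244% and 0.173% in the other PW3 libraries. PW5 replicates 1 and 3 followed with 0.849% and 0.722%, while PW5 replicate 2 had 0.0763%. The PW1 libraries had 0.0307%, 0.0546% and 0.154%. The highest library of an age exceeded the lowest 4.88-fold at PW1, 84.3-fold at PW3 and 11.7-fold at PW5, and the 3 ages overlapped. By the median over the 37 genes of log2(FPKM + 1) in place of the sum it was 3.99-fold, 36.9-fold and 6.40-fold. In such bulk samples more epithelial cells and more RNA per epithelial cell cannot be told apart.

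The order of the libraries was shared by most of the genes. All 37 were highest of the PW3 libraries in replicate 2, and 36 were highest there among all 9 libraries, the exception being Fabp2. At PW1, 32 were highest in replicate 3 and 5 in replicate 2. At PW5, 31 were highest in replicate 1 and 6 in replicate 3, and all 37 were lowest or tied for lowest in replicate 2. These orders were not counted over all genes, so no share stands beside them. In PW3 replicate 2, 35 of the 37 genes were at least 2 log2 units of FPKM + 1 above both other PW3 libraries, a step that 3.48% of all 10011 genes made. In PW1 replicate 3, 6 of the 37 made this step over the other PW1 libraries, against 0.929% of all genes, and in PW5 replicate 1 it was 1 of the 37 against 0.819%. The median range between the lowest and highest library was 1.72 log2 units at PW1, 5.02 at PW3 and 2.78 at PW5 for the 37 genes, and 0.38, 0.67 and 0.41 for all genes. Since the genes were chosen with these levels known, these counts and shares describe them and nothing more is read from them.

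**Figure D1:**
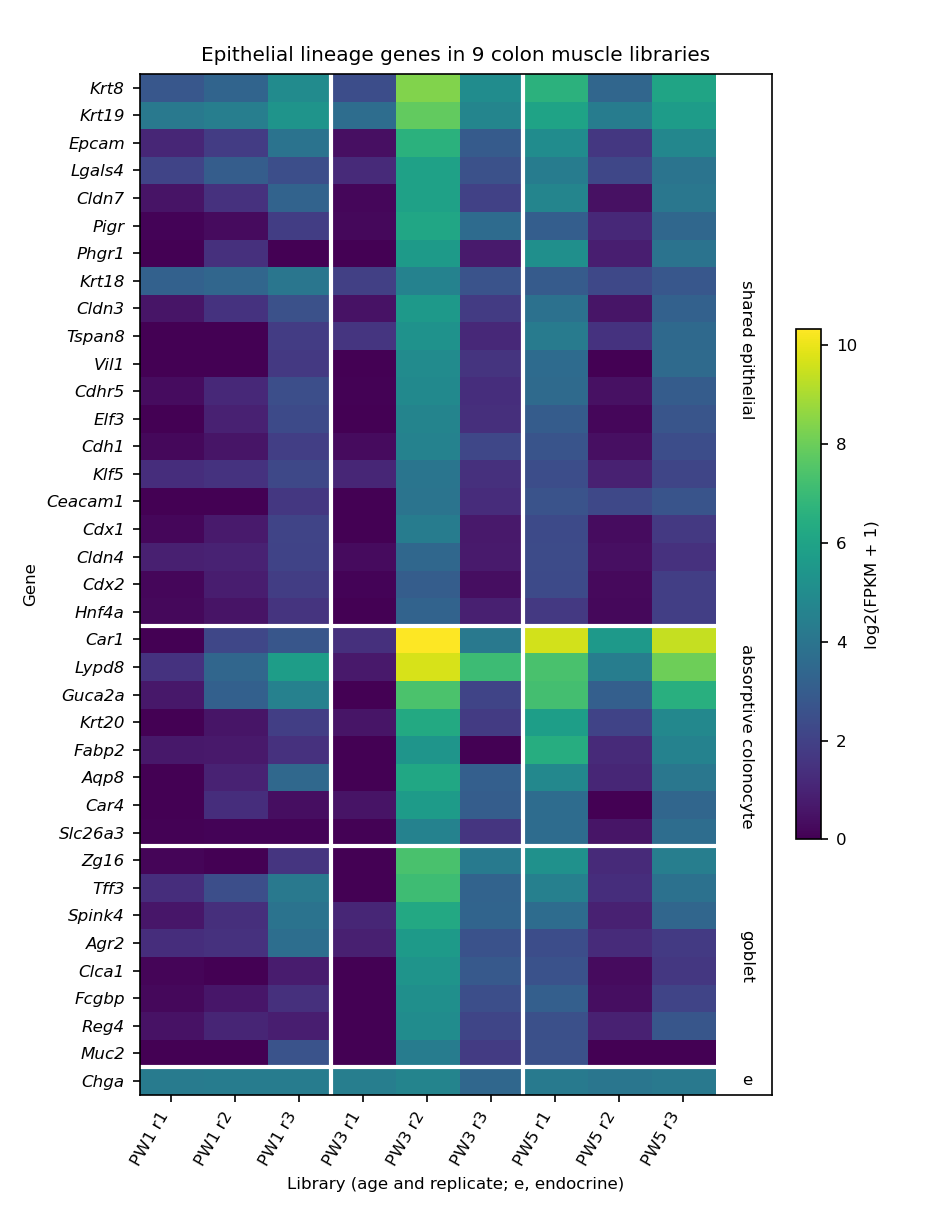
Level of each of the 37 epithelial genes in each of the 9 libraries, as log2(FPKM + 1), with the genes in rows by class and by falling mean FPKM and the libraries in columns by age (r, replicate). PW3 replicate 2 is the brightest column for 36 of the 37 genes, and Chga, in the bottom row, is of similar colour in all columns.

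Shared epithelial genes are made by several of the cell types of the lining. The keratins Krt8, Krt18 and Krt19 form the intermediate filaments of simple epithelia, and mesothelium, the thin cover of the outer gut wall, makes them as well. Krt8 was at 5.99, 9.07 and 30.2 FPKM at PW1, 4.44, 327 and 31.3 at PW3, and 97.7, 9.75 and 64.7 at PW5. Krt19 was at 17.1, 20.1 and 39.3 FPKM at PW1, 11.8, 232 and 24.9 at PW3, and 63.3, 19.0 and 51.1 at PW5. For both genes PW3 replicate 2 was far above all others and the ages overlapped. Krt18, the usual partner of Krt8, was at 8.16, 9.67 and 15.7 FPKM at PW1, 2.90, 22.7 and 5.22 at PW3, and 6.77, 3.77 and 6.00 at PW5. Its PW5 libraries were all below its PW1 libraries, the opposite order to Krt8 medians, and Krt8 per Krt18 ran from 0.735 in PW1 replicate 1 to 14.4 in PW3 replicate 2 and in PW5 replicate 1. The 3 keratins made up 78.0%, 62.8% and 55.4% of the class sum at PW1, 75.8%, 49.5% and 57.8% at PW3, and 44.6%, 65.3% and 45.4% at PW5, so that their share was largest in the libraries with the lowest class sums.

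Cell adhesion was represented by Epcam, a surface adhesion molecule of epithelia, by the cadherin Cdh1 and by the tight junction claudins Cldn3, Cldn4 and Cldn7. Epcam was at 1.13, 2.61 and 14.2 FPKM at PW1, 0.339, 94.7 and 6.85 at PW3, and 31.2, 2.22 and 26.9 at PW5. Cldn7 was at 0.448, 1.78 and 8.85 FPKM at PW1, 0.138, 59.4 and 3.00 at PW3, and 24.6, 0.399 and 15.97 at PW5. Both were high in PW3 replicate 2 and in PW5 replicates 1 and 3 and low in PW5 replicate 2, which fell within the range of PW1 for Epcam and below it for Cldn7. Lgals4, a galectin of the gut lining, was at 3.39, 7.38 and 4.60 FPKM at PW1, 1.34, 58.4 and 4.91 at PW3, and 19.0, 3.62 and 14.6 at PW5. Pigr, the receptor that carries immunoglobulin A across the epithelium, was at 0.0768, 0.218 and 2.63 FPKM at PW1, 0.155, 68.2 and 11.4 at PW3, and 7.40, 1.27 and 9.79 at PW5. Pigr differed from Epcam in that PW3 replicate 3 was above all PW5 libraries, and Lgals4 in that PW1 replicate 2 was above PW1 replicate 3.

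The 14 shared genes outside the 6 with the highest mean FPKM, Krt18 among them, ranged from 7.20 to 48.2 FPKM in PW3 replicate 2, from 2.31 to 34.8 FPKM in PW5 replicate 1 and from 1.77 to 14.3 FPKM in PW5 replicate 3. Their medians were 0.153, 0.868 and 3.01 FPKM at PW1, 0.0505, 23.0 and 1.52 at PW3, and 6.06, 0.366 and 5.54 at PW5. They include Vil1, the actin bundler of microvilli, which was listed at 0 in PW1 replicates 1 and 2, PW3 replicate 1 and PW5 replicate 2 and was at 30.9 FPKM in PW3 replicate 2. The intestinal transcription factors Cdx1, Cdx2 and Hnf4a were at low levels, with 19.1, 7.20 and 8.87 FPKM in PW3 replicate 2 and at most 4.06, 3.93 and 2.81 FPKM in any other library. Elf3, an epithelial transcription factor, was at 24.1 FPKM in PW3 replicate 2 and at 7.13 FPKM or less elsewhere, and Klf5, which is also made outside epithelia, was at 15.3 and at most 4.44 FPKM. Factors and structural genes thus had the same highest library.

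Absorptive genes spanned the widest range. Car1, a cytosolic carbonic anhydrase of colonocytes, was the most abundant of the 37 genes over all libraries; it was listed at 0 in PW1 replicate 1 and was at 3.58 and 5.86 FPKM in PW1 replicates 2 and 3. It was at 1.67, 1286 and 17.2 FPKM at PW3, and 799, 46.8 and 687 at PW5. All PW5 libraries were above all PW1 libraries, PW5 replicate 2 included, while PW3 replicate 1 fell within the range of PW1. Lypd8, a secreted protein that binds flagella and keeps bacteria off the colonic surface, was at 1.89, 9.77 and 52.1 FPKM at PW1, 0.618, 840.5 and 135 at PW3, and 162, 19.9 and 261 at PW5. Its PW5 replicate 2 was below PW1 replicate 3, unlike that of Car1.

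Guca2a, the peptide guanylin that acts on fluid secretion, was at 0.600, 8.06 and 22.0 FPKM at PW1, 0, 167 and 3.39 at PW3, and 149.8, 7.79 and 91.1 at PW5. Krt20, a keratin of mature surface cells, was at 0, 0.495 and 2.73 FPKM at PW1, 0.482, 76.0 and 2.51 at PW3, and 54.5, 3.23 and 26.9 at PW5. Both were highest in PW3 replicate 2 and next in PW5 replicate 1, and for Krt20 the PW1 and PW5 libraries did not overlap. Fabp2, a fatty acid binding protein of enterocytes, was at 0.573, 0.643 and 1.81 FPKM at PW1 and 84.9, 1.36 and 22.7 at PW5, and at PW3 it was listed at 0 in replicates 1 and 3 and was at 41.0 FPKM in replicate 2. It was the gene of the 37 whose highest library was not PW3 replicate 2. Aqp8, a water channel, was at 0, 0.982 and 10.3 FPKM at PW1, 0, 70.5 and 7.63 at PW3, and 27.0, 1.17 and 15.9 at PW5. Slc26a3, the chloride and bicarbonate exchanger, stayed at 0.0838 FPKM or less in all PW1 libraries and was at 11.5, 0.508 and 11.9 FPKM at PW5, so that these ages did not overlap. Car4, a carbonic anhydrase of the cell surface, was listed at 0 in PW1 replicate 1 and PW5 replicate 2 and reached 49.3 FPKM in PW3 replicate 2.

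Goblet cell genes encode mucus proteins and the factors that help to fold and stabilise them. Zg16, a mucus lectin that binds bacteria, was at 0.0938, 0 and 2.03 FPKM at PW1, 0, 164 and 17.3 at PW3, and 36.0, 1.34 and 20.2 at PW5. Tff3, a trefoil peptide of mucus, was at 1.54, 4.57 and 17.3 FPKM at PW1, 0, 137 and 8.76 at PW3, and 21.7, 1.53 and 13.5 at PW5. Agr2, a disulfide isomerase needed for mucin folding, was at 1.56, 1.76 and 12.4 FPKM at PW1, 0.897, 48.2 and 5.02 at PW3, and 4.49, 1.38 and 2.35 at PW5. PW3 replicate 2 was the highest library for each of the 3 genes. They differed in what followed: PW1 replicate 3 was second for Agr2, whereas PW5 replicate 1 was second for Zg16 and Tff3.

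Spink4, a protease inhibitor of goblet cells, was at 0.549, 1.59 and 14.4 FPKM at PW1, 1.16, 73.5 and 8.99 at PW3, and 11.4, 0.9498 and 9.54 at PW5. Clca1, a secreted protease that acts on mucus, was at 0.0976, 0 and 0.720 FPKM at PW1, 0, 39.9 and 6.45 at PW3, and 5.08, 0.245 and 2.19 at PW5. Fcgbp, a mucus protein bound to the mucin network, was at 0.182, 0.546 and 1.71 FPKM at PW1, 0, 34.0 and 4.60 at PW3, and 7.72, 0.289 and 3.35 at PW5. The ages overlapped for all 3 genes. Muc2, the gel-forming mucin itself, was listed at 0 in 5 of the 9 libraries and was at 5.25 FPKM in PW1 replicate 3, at 19.0 and 2.51 FPKM in PW3 replicates 2 and 3 and at 4.98 FPKM in PW5 replicate 1. In PW5 replicate 3 Muc2 was listed at 0 although Zg16 was at 20.2 FPKM there. Reg4, a secreted lectin, reached 31.6 FPKM in PW3 replicate 2 and was between 0 and 5.87 FPKM in the others.

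Chga encodes chromogranin A, a protein of the secretory granules of endocrine cells that neurons also make. It was at 18.7, 19.2 and 19.4 FPKM at PW1, 20.5, 24.0 and 10.03 at PW3, and 17.5, 15.7 and 17.2 at PW5. PW3 replicate 2 was again the highest library, but close to the next, and PW3 replicate 3 was the lowest. Chgb, its relative, had the same lowest library, with 12.9, 12.5 and 13.0 FPKM at PW1, 14.9, 14.9 and 6.95 at PW3, and 10.6, 11.04 and 10.2 at PW5. The summed FPKM of 9 genes of enteric neurons was 820.1, 737 and 797 at PW1, 652, 628 and 554 at PW3, and 496, 620.2 and 589 at PW5, and their part in the level of Chga was not tested. Of the other hormone genes, 3 were named after their values were seen: Pyy, Insl5 and Sct were at 11.03, 6.48 and 7.11 FPKM in PW3 replicate 2 and at most 1.81, 1.49 and 3.36 FPKM in any other library. They shared the peak in PW3 replicate 2 with the absorptive and goblet genes, but Pyy and Insl5 were lower in all PW5 libraries than in PW1 replicate 3.

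**Figure D2:**
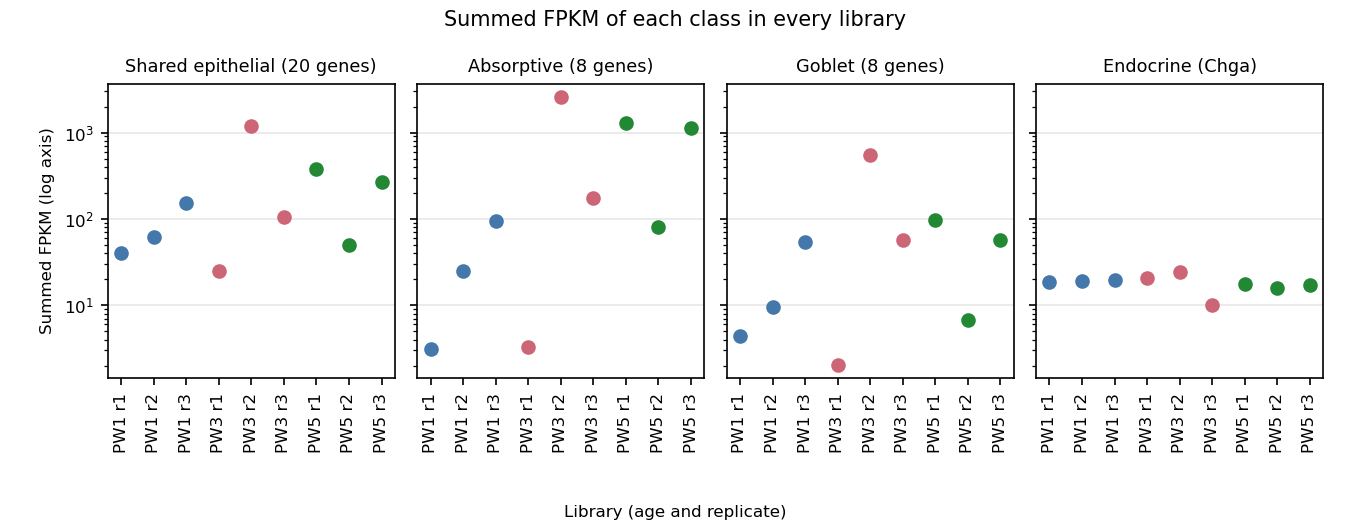
Summed FPKM of the shared epithelial, absorptive and goblet genes and FPKM of Chga in each of the 9 libraries, on a log axis, with 1 point for each library coloured by age (blue PW1, red PW3, green PW5). The first 3 panels are highest in PW3 replicate 2, at 1176, 2554 and 548 FPKM, while Chga lies between 10.03 and 24.0 FPKM.

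The ages were then compared, PW3 and PW5 each with PW1, by limma on log2(FPKM + 1), a scale that understates the change of genes at low levels. At PW3 none of the 37 genes passed the criterion, an absolute log2 fold change no smaller than 1 together with an unadjusted p under 0.05, nor an unadjusted p under 0.05 by itself, and 0 had a Benjamini-Hochberg adjusted p under 0.05. Of all 9896 genes tested, 2.82% passed the criterion as higher and 6.23% as lower, and 6.89% had an adjusted p under 0.05. The median log2 fold change was 1.16 over the 37 genes and -0.17 over all genes, and 35 of the 37 were above 0. The largest were Car1 at 3.65 ± 2.25 (SE, 3 mice an age), Zg16 at 3.28 ± 1.79 and Pigr at 2.57 ± 1.48, so that errors were over 1/2 of the fold change. No gene of the 37 had PW1 and PW3 libraries that did not overlap, against 36.4% of all genes tested. Without PW3 replicate 2, 35 of the 37 genes passed the filter, Slc26a3 and Phgr1 being too low. Their median was then -0.32, 17 of the 35 fold changes were above 0, and 1 gene, Krt18, passed the criterion, as lower, beside 259 higher and 725 lower of all 9718 genes tested. Without PW3 replicate 1 the median was 2.49 and 10 genes passed as higher, among them Car1, Car4, Lypd8, Zg16 and Clca1, beside 308 higher and 729 lower of all 9873 genes. The median was 0.72 without PW1 replicate 1, with 0 genes past the criterion.

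At PW5, 6 of the 37 genes passed the criterion, all as higher: Car1, Krt20, Slc26a3, Ceacam1, Tspan8 and Zg16. Of all 9875 genes tested, 4.96% passed as higher and 7.85% as lower. The log2 fold changes were 6.56 ± 1.31 (SE, 3 mice an age) for Car1, 3.40 ± 1.05 for Krt20, 2.56 ± 0.89 for Slc26a3, 1.96 ± 0.53 for the cell adhesion molecule Ceacam1, 2.50 ± 0.88 for the tetraspanin Tspan8 and 3.04 ± 1.12 for Zg16. Car1 and Ceacam1 also had an adjusted p under 0.05, which 25.9% of all genes had. The PW1 and PW5 libraries of 6 genes did not overlap, against 44.2% of all genes: Car1, Ceacam1, Krt20 and Slc26a3 were higher at PW5 and Krt18 and Chga lower. The median log2 fold change was 1.23, against -0.11 over all genes, and 33 of the 37 were above 0. Krt18 had -0.89 ± 0.30 and Chga -0.17 ± 0.07, and they were the genes with an unadjusted p under 0.05 beyond the 6. PW3 and PW5 were compared with the same PW1 libraries, so their values are not independent of each other.

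The PW5 count rested on single libraries. It was 25 of the 37 without PW5 replicate 2, all higher and with the 6 genes among them, and the median log2 fold change was then 1.96, while 568 of all 9849 genes passed as higher and 756 as lower. It was 3 without PW5 replicate 1, with a median of 0.53, and 2 without PW5 replicate 3. Without PW1 replicate 1 it was 3, and in both cases of 3 genes Krt18, as lower, was among them. Without PW1 replicate 2 it was 2, and without PW1 replicate 3 it was 7, of which Lypd8 and Pigr were not among the 6. In these other 5 cases 443 to 481 of all genes passed as higher and 740 to 819 as lower. Car1 and Ceacam1 passed in each of the 6 cases. With all 3 ages in 1 fit and no library left out, Ceacam1 did not pass and Car1 was the 1 gene of the 37 that did. Of all 9875 genes, 462 passed as higher and 802 as lower in that fit. By Benjamini-Hochberg adjusted p the count of 2 was less steady: it was 0 without PW5 replicate 1 and without PW5 replicate 3, 1 without PW1 replicate 1 and without PW1 replicate 2, 2 without PW1 replicate 3 and 11 without PW5 replicate 2. It was also 0 with a replicate block and with all 3 ages in 1 fit. The share of all genes with such an adjusted p, 25.9% beside the count of 2, is not given for these cases. These counts are therefore not read as a result about the 37 genes. Scaling by the median of ratios moved the median of all genes from -0.17 to -0.02 at PW3 and from -0.11 to 0.01 at PW5. The calls over all genes then went from 279 higher and 617 lower to 409 and 455 at PW3, and from 490 and 775 to 605 and 622 at PW5, while the median of the 37 genes was 1.23 at PW3 and 1.24 at PW5.

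The classes did not keep one proportion from library to library. The absorptive genes made up 4.68%, 21.7% and 29.5% of the 37 genes' FPKM at PW1, 6.43%, 59.4% and 50.1% at PW3, and 72.6%, 52.8% and 76.7% at PW5. Goblet genes made up 6.67%, 8.26% and 16.9% at PW1, 4.03%, 12.7% and 16.4% at PW3, and 5.37%, 4.37% and 3.88% at PW5. Chga made up 28.2%, 16.5% and 6.02% at PW1, 40.1%, 0.558% and 2.88% at PW3, and 0.977%, 10.3% and 1.17% at PW5. The share of Chga was thus highest where the other classes were lowest. Its own level lay between 10.03 and 24.0 FPKM, both at PW3, and was nearly even at PW1 and at PW5.

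Per 100 FPKM of the shared genes, the absorptive genes had 7.74, 40.7 and 61.8 FPKM at PW1, 13.0, 217 and 164 at PW3, and 346, 162 and 419.8 at PW5. All PW5 libraries were above all PW1 libraries in this ratio, and PW3 overlapped both. PW5 replicate 2, whose shared sum of 49.7 FPKM lay between those of PW1 replicates 1 and 2, at 40.0 and 61.9 FPKM, had a ratio of 162 against their 7.74 and 40.7. Without Krt8, Krt18 and Krt19 among the shared genes, a change made after seeing the data, the ratios were 35.2, 109 and 139 at PW1, 53.7, 430.0 and 389 at PW3, and 625, 469 and 768 at PW5, and PW5 was above all other libraries. By single genes, 6 of the 8 absorptive genes per 100 shared FPKM had PW5 libraries all above the PW1 libraries, namely Car1, Krt20, Slc26a3, Fabp2, Guca2a and Lypd8, while Car4 and Aqp8 overlapped. Of the 8 goblet genes 2 were above and 1 below in this way, of the 20 shared genes 2 were above and 3 below, and Chga overlapped. Of all 9875 genes tested at PW5, 1.24% were above and 9.24% below on the same scale.

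Goblet genes per 100 FPKM of shared genes were at 11.03, 15.4 and 35.5 FPKM at PW1, 8.14, 46.6 and 53.7 at PW3, and 25.6, 13.4 and 21.2 at PW5, and these overlapped. Per 100 FPKM of absorptive genes they were at 143, 38.0 and 57.4 FPKM at PW1, 62.7, 21.4 and 32.7 at PW3, and 7.39, 8.27 and 5.06 at PW5. The PW5 libraries were below all 6 others in this ratio, whether their summed level was high, as in replicates 1 and 3, or low, as in replicate 2. The order was also present without the most abundant gene of each class, at 8.38 to 15.7 in the PW5 libraries and 25.3 to 140 in the others, and with mean log2 values in place of sums, at 11.9 to 36.2 and 44.5 to 113. These differences were not tested, since the genes were chosen with the levels known.

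**Figure D3:**
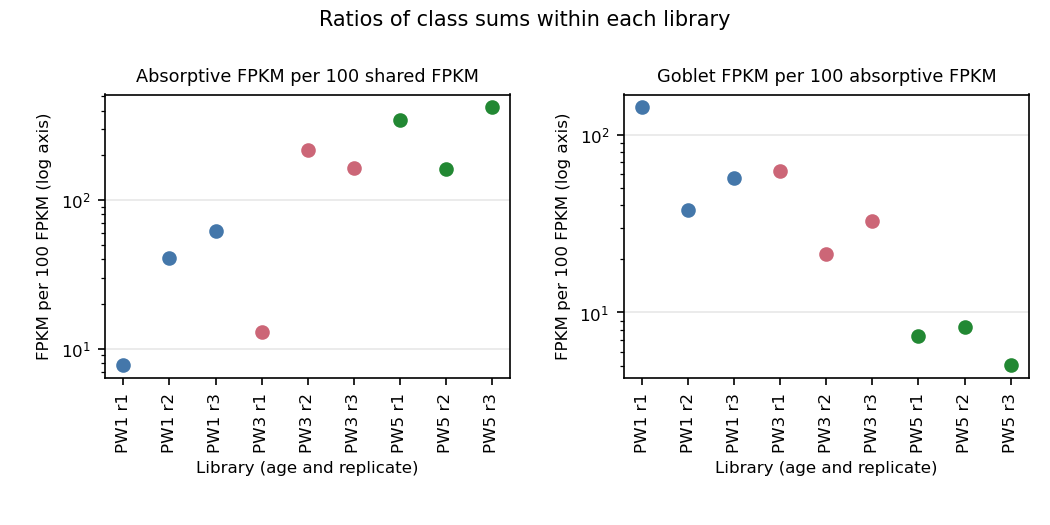
Absorptive FPKM per 100 FPKM of shared epithelial genes (left) and goblet FPKM per 100 FPKM of absorptive genes (right) in each of the 9 libraries, on log axes, with 1 point for each library coloured by age (blue PW1, red PW3, green PW5). On the right the PW5 libraries lie between 5.06 and 8.27 and the others between 21.4 and 143.

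Genes of one class also shifted against each other. Car1 per Lypd8 was 0, 0.366 and 0.113 at PW1, 2.71, 1.53 and 0.128 at PW3, and 4.95, 2.35 and 2.63 at PW5, without overlap of PW1 and PW5. Zg16 per Agr2 was 0.0603, 0 and 0.163 at PW1, 0, 3.41 and 3.46 at PW3, and 8.01, 0.969 and 8.59 at PW5, again without overlap of PW1 and PW5. Krt19 per Epcam was 15.0, 7.72 and 2.77 at PW1, 34.7, 2.45 and 3.64 at PW3, and 2.03, 8.55 and 1.90 at PW5. It was highest in PW1 replicate 1 and PW3 replicate 1, which had the lowest sums of the 37 genes.

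Epithelial genes outside the 37 were taken from 4 further lists written from general knowledge. Of these, 62 genes were in the table, and 54 of them were highest of the PW3 libraries in replicate 2, 34 by at least 2 log2 units. Their sum was 179, 192 and 247 FPKM at PW1, 268, 952 and 257 at PW3, and 547, 304 and 571 at PW5. PW3 replicate 2 was the highest library here as well, followed by PW5 replicates 3 and 1. At PW3, 3 of the 61 genes tested passed the criterion as higher and 1 as lower, and at PW5 it was 6 and 3 of 52.

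Among other junction and adhesion genes, 1 of 21 passed as higher at PW3 and 0 of 17 at PW5, and none passed as lower. The list's sum was 26.2, 24.6 and 41.4 FPKM at PW1, 52.7, 157 and 45.7 at PW3, and 63.7, 35.8 and 73.2 at PW5. Its most abundant gene, the desmosomal plakophilin Pkp2, was at 9.67, 8.30 and 8.89 FPKM at PW1, 18.3, 17.3 and 18.6 at PW3, and 15.99, 16.4 and 16.8 at PW5, a log2 fold change of 0.94 ± 0.12 (SE) at PW3 with limma's adjusted p of 0.0123 and of 0.81 ± 0.09 at PW5 with 0.00213. Pkp2 was higher in 3 of 3 libraries at both ages and even among the libraries of an age. Cldn15 was at 5.31 to 11.4 FPKM. Jup, the gene past the criterion, was at 0.638, 0.852 and 0.821 FPKM at PW1, 18.3, 0.963 and 13.6 at PW3, and 0.665, 0.440 and 15.4 at PW5, which follows neither the ages nor the other epithelial genes.

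Among other absorptive and transport genes, 2 of 30 passed as higher and 0 as lower at PW3, and 5 of 26 as higher and 1 as lower at PW5. The sum was 71.2, 82.5 and 117 FPKM at PW1, 106, 681 and 138 at PW3, and 364, 146 and 387 at PW5. Cyp2c55, a cytochrome P450 of the colon, was at 0.153, 0.469 and 2.24 FPKM at PW1, 0.0995, 178 and 1.70 at PW3, and 82.2, 5.64 and 108 at PW5, a log2 fold change of 4.47 ± 1.14 at PW5 with limma's adjusted p of 0.0368. Plac8 was at 10.2, 9.29 and 15.3 FPKM at PW1, 11.2, 81.2 and 14.0 at PW3, and 39.8, 9.97 and 28.4 at PW5. Cyp2c55 and Plac8 had the same high libraries as Car1.

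Of other goblet and secretory genes, 3 were in the table, with 0 past the criterion at PW3 and 1 lower at PW5. This was Creb3l1, a transcription factor of secretory cells that fibroblasts also use, at 6.04, 6.54 and 7.14 FPKM at PW1, 2.33, 5.38 and 2.24 at PW3, and 1.06, 0.560 and 0.865 at PW5. Nupr1, the most abundant, was at 5.26 to 23.0 FPKM and Reg3b at 0 to 7.69 FPKM, and the list's sum was 12.2, 16.1 and 16.8 FPKM at PW1, 10.3, 31.5 and 8.85 at PW3, and 24.3, 13.6 and 6.12 at PW5. Of other enteroendocrine genes, 0 of 7 passed as higher and 1 as lower at PW3, and 1 as higher and 1 as lower of 6 at PW5. Their sum, of which the granins Scg3 and Scg5 made up the largest part, was 69.4, 68.6 and 72.4 FPKM at PW1, 98.5, 83.3 and 64.5 at PW3, and 95.5, 108 and 105 at PW5. Scg3 and Scg5 are also genes of neurons.

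Lists for other cells of the mucosa held few genes of the table. Of crypt base and progenitor genes 4 were present, led by Smoc2 at 29.0 to 53.8 and Lrig1 at 22.0 to 47.6 FPKM, and their sum was 99.4, 102 and 101 FPKM at PW1, 55.6, 65.9 and 52.8 at PW3, and 67.5, 57.2 and 60.2 at PW5. In this list 0 of 4 passed the criterion at PW3 and 1 of 4, Ephb3, passed as lower at PW5, while 2 and 3 of the 4 were lower by limma's adjusted p under 0.05 alone. Of tuft cell genes 4 were present, led by the cyclooxygenase Ptgs1 at 17.95 to 76.4 FPKM, with 1 higher and 1 lower at each later age. Their sum was 28.8, 24.9 and 26.8 FPKM at PW1, 84.5, 68.5 and 74.9 at PW3, and 62.1, 61.1 and 61.7 at PW5. Smoc2 and Lrig1 made up most of the crypt base sum in every library, so that sum says little of the other genes of its list. Of these 8 genes, 1 was at least 2 log2 units higher in PW3 replicate 2 than in the other PW3 libraries. This was Prom1 of the crypt base list, at 0, 7.53 and 0 FPKM at PW3. Of 7 small intestinal genes, 0 passed as higher and 2 as lower at PW3, and at PW5 1 passed as higher and 2 as lower of 6. The list's sum was 7.21, 10.4 and 15.9 FPKM at PW1, 2.27, 24.7 and 2.76 at PW3, and 10.7, 3.28 and 15.6 at PW5, and its most abundant gene, Rbp2, reached 8.37 FPKM in PW3 replicate 2. The genes lower at both ages were Apoa1 and Apoa4, apolipoproteins of enterocytes, and Apoa4 was at 3.64, 4.16 and 6.25 FPKM at PW1, at 0, 1.04 and 0 at PW3 and at 0 in all PW5 libraries.

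Of 10 plasma cell genes, Txndc5 and Fkbp11 were present, which other secretory cells also make, with a sum of 28.8, 57.8 and 55.5 FPKM at PW1, 27.0, 43.1 and 41.7 at PW3, and 36.1, 32.9 and 16.8 at PW5. None passed at PW3 and Fkbp11 passed as lower at PW5. None of the 12 genes of T cells and intraepithelial lymphocytes was in the table. Of 7 macrophage genes 1 passed as higher at PW3 and 2 at PW5, and their sum, led by Lyz2, was 68.9, 74.5 and 83.1 FPKM at PW1, 114, 89.7 and 85.2 at PW3, and 139.8, 138 and 148 at PW5. Lyz2 was at 30.4 to 32.1 FPKM at PW1, 43.9 to 45.1 at PW3 and 75.8 to 84.2 at PW5. Of 6 genes of fibroblasts under the epithelium, 1 passed as lower at each later age, and their sum, led by Pdgfra, was 87.8, 76.4 and 71.0 FPKM at PW1, 57.6, 69.7 and 53.4 at PW3, and 78.2, 88.9 and 58.7 at PW5. Pdgfra is also the gene after which the authors name a type of interstitial cell. None of these sums had a library that stood apart as PW3 replicate 2 did for the epithelial genes.

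Lists were also written for epithelia other than that of the gut. The 6 mesothelial genes had sums of 49.3, 48.4 and 39.6 FPKM at PW1, 35.8, 36.2 and 10.7 at PW3, and 34.7, 40.3 and 36.4 at PW5, with Msln the most abundant and PW3 replicate 3 the lowest library. In PW1 replicate 1 and PW3 replicate 1 these sums were above those of the 20 shared epithelial genes, at 40.03 and 25.2 FPKM. Of them 0 passed as higher and 2 as lower at PW3, and 0 and 1 at PW5. Their part in the keratin levels was not tested. Of the squamous and urothelial genes, 2 were present, Upk1a and Upk3a, and none passed at either age. Their sum was 0.605, 0.524 and 9.72 FPKM at PW1, 0.1397, 1.03 and 0 at PW3, and 0.396, 0.178 and 0.283 at PW5, so that PW1 replicate 3 stood out. The pancreatic acinar list had 1 gene, Cela1, at 1.42, 1.74 and 2.72 FPKM at PW1, 3.63, 15.4 and 6.81 at PW3, and 7.33, 5.96 and 5.02 at PW5, which passed as higher at both ages.

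Genes of the muscle coat had no such contrast between the libraries of an age. Of the 12 smooth muscle genes 3 passed as higher at PW3 and 2 at PW5, and none passed as lower. Their sum in PW3 replicate 2 was the lowest of the PW3 libraries, and per 1000 FPKM of smooth muscle genes the 37 epithelial genes had 2.98, 5.93 and 19.8 FPKM at PW1, 1.79, 165 and 10.98 at PW3, and 66.2, 6.34 and 60.4 at PW5. None of the 4 genes of interstitial cells of Cajal passed at PW3 and 1 passed as higher at PW5, with sums of 42.6, 41.9 and 46.6 FPKM, 42.9, 42.1 and 42.8 FPKM, and 37.8, 43.4 and 53.4 FPKM, led by Kit. Of 6 enteric glial genes 3 passed as higher at each later age, with sums of 28.8, 38.7 and 45.5 FPKM, 98.0, 73.7 and 86.7 FPKM, and 72.1, 80.5 and 85.6 FPKM, led by Sox10. Of the 9 neuronal genes, led by Prph, 0 passed at PW3 and 1 as higher at PW5, but by limma's adjusted p under 0.05 alone 2 were lower at PW3, and 6 were lower and 1 higher at PW5. None of 4 adipocyte genes passed at PW3 nor of 5 at PW5, and their sum, led by Fabp4, was 41.0, 142 and 66.9 FPKM at PW1, 37.6, 37.9 and 28.8 at PW3, and 92.1, 72.8 and 38.1 at PW5.

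Genes outside the 37 whose pattern was most like theirs were sought among 5414 genes that reached 10 FPKM in a library, by Pearson's r over the 9 libraries with the mean log2(FPKM + 1) of the 37. The 10 highest were Gpa33 (0.997), Slc6a14 (0.995), Ms4a8a (0.9904), Degs2 (0.989), Akr1c13 (0.987), Hao2 (0.986), Ildr1 (0.984), Cdhr2 (0.983), Slc44a4 (0.983) and St14 (0.983). Gpa33, a surface antigen of intestinal epithelium, was at 0.0743, 0.386 and 2.10 FPKM at PW1, 0, 22.5 and 1.63 at PW3, and 6.86, 0.237 and 5.35 at PW5. Cdhr2, a protocadherin that links microvilli, was at 0.264, 1.01 and 2.18 FPKM at PW1, 0, 21.2 and 1.67 at PW3, and 10.1, 0.297 and 8.93 at PW5. Slc6a14, an amino acid transporter, and the membrane protease St14 belong to the lists above. Among the 37 themselves, r with the mean of the other 36 was highest for Krt8 at 0.996, had a median of 0.932, and was lowest for Chga at 0.20 and Krt18 at 0.59. The points share their libraries and PW3 replicate 2 lies far from the rest, so these values describe a pattern and carry no p.

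Since most of the genes were high in the same libraries, the 250 bases before their transcription starts were searched for the letters of motifs of intestinal factors. RefSeq promoters of GRCm38.p6 were matched for 28 of the 37 genes. GCNATAAA, a form of the CDX motif, was found on either strand in 1 of the 28 (3.57%) and in 2.71% of 27025 genes, and CAAAGTNCA, a form of the HNF4 motif, in 1 (3.57%) and in 1.40%. GGGTGTGG, a form of the KLF motif, was found in 1 (3.57%) and in 3.68%. The first 2 were both in Fabp2, the gene with its highest level at PW5, and its stretch at chr3:122894822-122895071 on the plus strand is printed for that reason, with the HNF4 letters from -137 to -129 and the CDX letters from -65 to -58 in capitals, both on the opposite strand:
Fabp2: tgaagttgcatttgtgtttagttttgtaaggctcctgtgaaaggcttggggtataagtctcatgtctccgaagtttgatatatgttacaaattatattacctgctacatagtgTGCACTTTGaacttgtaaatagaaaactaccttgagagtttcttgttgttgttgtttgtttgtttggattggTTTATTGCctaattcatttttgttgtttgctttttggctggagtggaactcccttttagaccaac
A match is of letters only, and the absence of these letters from a stretch says nothing of the factors.

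In the annotation of GRCm38 the most abundant gene, Car1 (ENSMUSG00000027556), lies on the minus strand at chr3:14766216-14808368, Krt8 (ENSMUSG00000049382) on the minus strand at chr15:101996698-102004482 and Chga (ENSMUSG00000021194) on the plus strand at chr12:102554969-102565028. No gene of the 37 overlapped exons of another gene on its own strand. On the opposite strand Krt8, Cldn3, Elf3, Vil1 and Tspan8 did, and the part of these overlaps in their levels was not tested. Windows of 50 bases that also occur in other genes made up 30.4% of Ceacam1, 26.9% of Krt8, 13.4% of Car1 and 6.42% of Fcgbp, so reads of these genes may be shared with near-identical copies and their levels are less certain. A value of 0 was also listed in some library for 35 genes with a median of at least 10 FPKM, Car1 among them, and Ppia, a gene that all cells use, was at 209, 145 and 173 FPKM at PW1, 5.496, 163 and 2.08 at PW3, and 137, 108 and 171 at PW5. A gene listed at 0 is therefore not taken as absent. The part of the upstream assignment of transcripts to genes in such swings within an age was not tested. The absorptive sums at PW5 rest largely on Car1, at 799 of 1299.6, 46.8 of 80.8 and 687 of 1126 FPKM, and the endocrine class is Chga alone.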

How the data were processed

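The authors deposited FPKM for each gene and library, made with StringTie after trimming (Trimmomatic) and alignment by HISAT2 to the mouse genome GRCm38.p6, in versions not given in the sources used here. FPKM are relative to the other genes, and counts and depth could not be recovered, so no counting error is given. The members and the gene lists were chosen with earlier results of these data known. In the table, no gene had a maximum below 2.09 FPKM, and all 37 members had a mean no lower than 0.5 FPKM in each comparison, the filter used. Values were taken as log2(FPKM + 1) and fitted across all genes by limma (version 3.58.1, R 4.3.3), using moderated variances that follow a trend with level. Tests were two-sided, and Benjamini-Hochberg adjustment covered every gene tested. An exact permutation test of 3 against 3 mice cannot give a p below 0.1, so none was used. Symbols and positions come from GENCODE for GRCm38. Values in every library are given for up to 6 members of a class and up to 3 genes of each list with the highest mean FPKM are named. Others were named after their values were seen. The counts of members in each library, the step of 2 log2 units the ratios of gene pairs and the ratio without keratins were chosen after seeing the data. Alternatives were a pseudocount of 0.1, other filters and scalings, no trend, 1 fit of all 3 ages, a replicate block, adjusted p values and leaving out each library. Python 3.11.15 with pandas 2.3.3, numpy 2.4.6 and matplotlib 3.10.9 was used. With 3 mice an age and libraries of 1 age that differed this widely, absence of a call is no sign of equal levels. Bulk FPKM do not tell which cells made a transcript, and neither the share of proximal and distal tissue in a library nor the amount of mucosa left on it is known.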

Additional observations from a re-analysis of the deposited data

How the results depend on the processing

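The median log2 fold change of the 37 genes lay between 1.15 and 1.45 at PW3 and between 1.23 and 1.66 at PW5 over 9 alternatives each that kept all libraries. With 1 library left out it ran from -0.32 to 2.49 at PW3, the sign turning without PW3 replicate 2, where 35 genes passed the filter, and from 0.53 to 1.96 at PW5. The number of genes past the criterion ran from 0 to 10 at PW3 and from 2 to 25 at PW5 with 1 library left out. At PW5 it was 6, and 2 by adjusted p, 10 after quantile normalization and 1, Car1, with all 3 ages in 1 fit. Of all 9875 genes, 622 passed as higher and 642 as lower after quantile normalization, and 462 and 802 with all 3 ages in 1 fit. Replicate numbers did not pair the libraries: deviations of same-numbered libraries from their group means had correlations between -0.21 and 0.09. With a replicate block 1 gene, Car4, passed at PW3 and 8 passed at PW5. Of all genes, 273 of 9896 passed as higher and 585 as lower at PW3 with this block, and 471 and 755 of 9875 at PW5.

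By the median over genes of log2(FPKM + 1) in place of sums, the highest library exceeded the lowest 36.9-fold at PW3 and 6.40-fold at PW5. The median of PW5 for absorptive FPKM per 100 shared FPKM was 346, and 180.1 without the most abundant gene of each class and 625 without the 3 keratins. Goblet FPKM per 100 shared FPKM had medians of 15.4, 46.6 and 21.2 at PW1, PW3 and PW5, and 77.8, 154 and 75.7 by mean log2 values, and 50.2 at PW1 and 38.9 at PW5 without the keratins. Goblet FPKM per 100 absorptive FPKM had medians of 32.7 at PW3 and 7.39 at PW5, and 89.7 and 15.0 by mean log2 values, and 12.0 at PW5 without the most abundant genes. The mean log2 values compare class means of log2(FPKM + 1), so they are a different measure from the ratios of summed FPKM. Their distance from those ratios is not read as a shift of the result. The cause of the other shifts was not tested. Depth is unknown, so counting error at low FPKM cannot be given.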

Other observations

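Among the 313 other genes that were at least 2 log2 units higher in PW3 replicate 2 than in both other PW3 libraries, several shared its high level with PW5 replicates 1 and 3 and several did not. The genes named here were chosen after their values were seen, from those with the highest FPKM in that library. S100g, a calcium binding protein of absorptive cells, was at 0, 3.69 and 10.01 FPKM at PW1, 0.724, 189 and 2.40 at PW3, and 24.8, 1.90 and 54.0 at PW5. Lgals3, a galectin, was at 3.32, 3.60 and 7.73 FPKM at PW1, 5.51, 148 and 11.5 at PW3, and 89.4, 11.9 and 58.1 at PW5. Both were high in PW3 replicate 2 and in PW5 replicates 1 and 3, as most of the 37 genes were, but S100g was higher in PW5 replicate 3 than in PW5 replicate 1. In contrast, Spink1, a trypsin inhibitor, was at 1.45, 4.94 and 24.0 FPKM at PW1 and 0, 87.1 and 4.92 at PW3, and at PW5 it was at 0.361 FPKM in replicate 1 and listed at 0 in replicates 2 and 3. Sycn, a secretory granule protein, was at 93.3 FPKM in PW3 replicate 2 and at 2.54 FPKM or less in the other 8 libraries. Mptx1, a pentraxin, was at 93.1 and 10.7 FPKM in PW3 replicates 2 and 3 and at 1.08 FPKM or less elsewhere.

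The same step was made by genes that are not epithelial. Tpm2, a tropomyosin of muscle, was at 1406, 1476 and 1146 FPKM at PW1, 167, 1543 and 68.5 at PW3, and 1880.35, 104 and 754 at PW5, and the collagen gene Col1a2 ran from 3.49 to 318 FPKM. A library of at least 10 FPKM beside another of the same age under 1 FPKM was found for 3 of the 37 genes at PW1, 25 at PW3 and 8 at PW5, and for 1.498%, 2.66% and 1.70% of all genes. In all 3 ages 7 genes had such a contrast, none of them among the 37. One of the 7, 2610528A11Rik, was highest in PW1 replicate 3, PW3 replicate 2 and PW5 replicate 1 of each age, as most of the epithelial genes were, with 0.404, 3.66 and 25.8 FPKM at PW1, 0, 61.9 and 8.09 at PW3, and 17.8, 0.504 and 10.6 at PW5. Another, Dnm1l, was at 17.5 FPKM in PW1 replicate 3, 15.2 in PW3 replicate 2 and 20.2 in PW5 replicate 3 and at 0.780 FPKM or less in the other 6 libraries. Muc13, a mucin of the cell surface, was at 0.0364 FPKM in PW3 replicate 2, against 6.56 FPKM in PW3 replicate 3 and 3.63 FPKM in PW1 replicate 3. Trpm5, an ion channel of tuft cells, was at 2.67, 3.46 and 2.44 FPKM at PW1 and listed at 0 in all 6 later libraries.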
